A study of Mus musculus with 16 samples.

Results

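The CA1 and CA3 fields of the mouse dorsal hippocampus were compared with each other by bulk RNA sequencing of microdissected tissue, over 6 libraries labelled CA1 and 5 labelled CA3, which are 11 of the 16 libraries of the series. The other 5 were labelled dentate gyrus (DG) and serve here only as levels to read the others against. All animals were adult ArcCreERT2::eYFPflx mice on a C57BL/6 background, in which the Arc promoter drives a tamoxifen-dependent recombinase and the reporter is shared by every group, so no group is wild type. Trained mice learned active place avoidance, that is, to stay out of an unmarked shock zone on a rotating arena, and untrained mice walked the same arena with the shock off. Tissue was taken after a retention test without shock, and pieces of each animal were pooled by subregion. The groups held 3 CA1 trained, 3 CA1 untrained, 3 CA3 trained and 2 CA3 untrained libraries, chosen by the subregion and training given in the labels. By the paper's account bulk sequencing used 3 trained and 3 untrained mice, so the CA1 and CA3 libraries of a training group share mice. The titles number the libraries within each training group. The sources used here do not state outright that equal numbers mark the same animal, so the main fits use no pairing. A fit with the number as a replicate block is given as an alternative.

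CA3 pyramidal neurons receive the mossy fibres of dentate granule cells, excite each other through recurrent collaterals and send Schaffer collaterals to CA1, whose pyramidal neurons are the main output of the hippocampus proper. The fields differ in transcription factors, kainate receptors, potassium channels, adhesion proteins and axon guidance genes, and a narrow CA2 field lies between them. These textbook differences guided the gene lists below, but the list members were written with earlier results of these data known. Other genes were named by their values. Values are the deposited normalized values, which give no read depth, and differences are on the log2(value + 2) scale, CA1 minus CA3, on which low genes appear to differ by less than they do. In bulk tissue, fewer cells of a type and less RNA per cell cannot be told apart.

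Some libraries stood apart before any comparison was made. The transcript Xist, which marks cells with an inactive X chromosome, lay between 12112 and 19592 in the 6 trained libraries and between 26.1 and 52.4 in 4 of the 5 untrained ones. The library labelled CA3 untrained replicate 1 had 10587 for Xist and 201 for the Y-linked gene Ddx3y, whereas the CA1 and DG libraries with the same number had 26.1 and 25.5 for Xist, so it does not match them. The study's methods place females and males in both training groups, yet all 6 trained libraries were high in Xist and 4 of the 5 untrained ones were low, so training and the level of sex-linked transcripts cannot be told apart here. Where CA3 untrained replicate 1 or 2 is left out below, 1 CA3 untrained library remains, and its spread is taken from the other groups. In all 3 CA1 trained libraries and in CA3 trained replicates 1 and 2, 8009 to 9759 genes were listed at 0, against 3124 to 5659 in the other 6. Within the trained group this number therefore moves partly with the subregion, and with a term for these libraries 18 genes were called in place of 8 in the first comparison below.

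The labels were first read against markers, and the separation of the fields was partial. Of the 8 granule cell markers, 7 had overlapping values in the CA1, CA3 and DG libraries. The exception was Tdo2, which catabolizes tryptophan, at 93.0 to 105.3 in DG and 40.2 to 89.5 in CA1 libraries, with CA3 at 68.0 to 99.0. Prox1, the transcription factor that defines granule cells, was 3483, 3618 and 3534 in CA1 trained, 3669, 3861 and 3052 in CA1 untrained, 4002, 2862 and 2690 in CA3 trained and 4786 and 3902 in CA3 untrained libraries. The DG libraries lay between 3292 and 4183, inside that range. The summed level of the 8 granule cell markers ran from 12004 to 14916 in CA1, from 10705 to 18127 in CA3 and from 12743 to 15626 in DG libraries. Of these 8, 0 were called by limma at an adjusted p under 0.05 and 0 had an unadjusted p under 0.05, with a median log2 difference of -0.0424. All 8 were higher in CA1 within trained libraries, with a median of 0.165, and all 8 were higher in CA3 within untrained libraries, with a median of -0.293. For Prox1 the difference was -0.03 (95% interval -0.35 to 0.28), and for Dsp, a desmosomal protein of granule cells, it was -0.08 (95% interval -0.38 to 0.21). Granule cell RNA was thus present in libraries of every label, and the libraries are called here by their labels and not as pure CA1 or CA3 tissue.

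**Figure D1:**
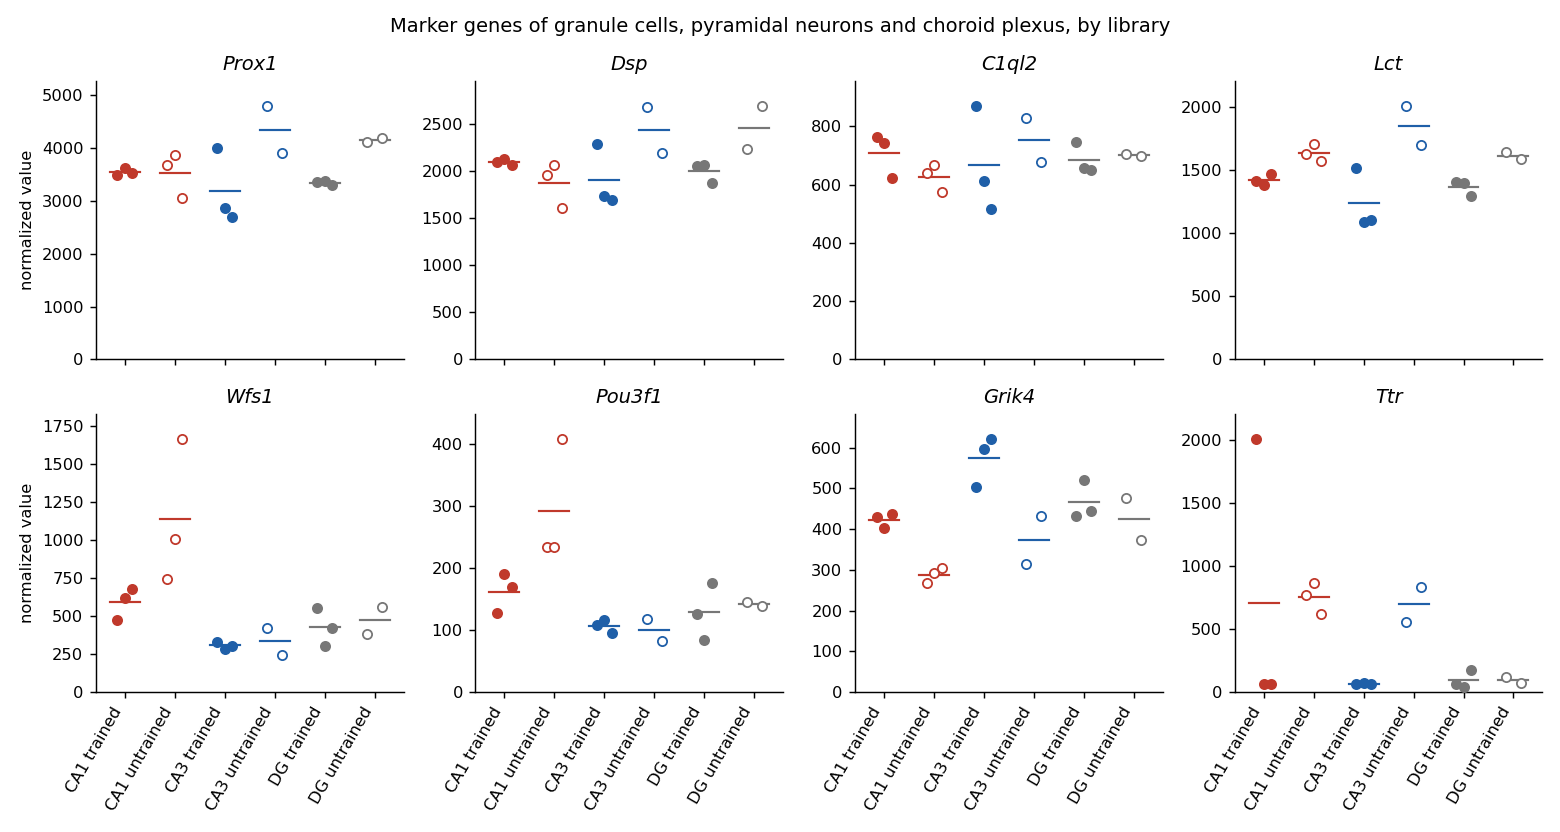
Normalized value (vertical axis, linear, from 0) of 8 marker genes in each library, grouped along the horizontal axis by labelled subregion and training; filled points are trained and open points untrained libraries, and lines are group means. The granule cell genes Prox1, Dsp, C1ql2 and Lct overlap between CA1, CA3 and DG, Wfs1 and Pou3f1 are higher in CA1, Grik4 is higher in CA3 within each training group, and Ttr is high in all untrained CA1 and CA3 libraries and in CA1 trained replicate 1.

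Genes of CA1 pyramidal neurons lay mostly higher in the libraries labelled CA1. Of the 10 listed genes, 9 were higher in CA1 and 8 had an unadjusted p under 0.05, against a background of 4.97% of all 14413 genes tested, but none passed the adjusted threshold, which 0.0416% of genes passed in this direction. In 5 of the 10, every CA1 library lay above every CA3 library in both training groups, as 1.27% of all genes did. The median difference of the list was 0.91, with 0.397 within trained and 1.40 within untrained libraries, against -0.005 over all genes. The signed difference was higher within untrained libraries in 8 of the 10 and higher within trained libraries in Bcl11b and Zbtb20. Zbtb20 differed by 0.038 within trained and by -0.309, that is, toward CA3, within untrained libraries. By the interaction test of limma no listed gene was called, with the smallest adjusted p, 0.407, in Man1a. There were 6 negative and 1 positive interaction at an unadjusted p under 0.05.

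Wfs1, the endoplasmic reticulum protein most used to mark CA1, had values of 472, 619 and 681 in CA1 trained and 746, 1009 and 1663 in CA1 untrained libraries. In CA3 it had 332, 286 and 305 in trained and 423 and 244 in untrained libraries, so the subregions did not overlap. The difference was 1.29 ± 0.27 (SE), and its limma adjusted p of 0.145 missed the threshold. The POU-domain transcription factor Pou3f1 had 127, 190 and 169 in CA1 trained and 234, 234 and 408 in CA1 untrained libraries, against 108.5, 116 and 94.7 in CA3 trained and 118 and 82.6 in CA3 untrained libraries. Here, too, every CA1 library was higher, by 0.99 ± 0.227 (limma adjusted p = 0.153).

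Mpped1 and the mannosidase Man1a, too, were higher in CA1 with no overlap between the libraries, by 1.16 and 0.87, with limma adjusted p of 0.263 and 0.0925. Within untrained libraries 4 of the 10 genes were called, against 0.583% of all genes in that direction, among them Man1a by 1.31, Pou3f1 by 1.49 and Mpped1 by 2.02. These named genes were also called without CA3 untrained replicate 1, which leaves 1 CA3 untrained library. Fibcd1 (0.95) and the transcription factors Foxp1 (0.27) and Bcl11b (0.26) lay higher in CA1 without an adjusted call, and Zbtb20 (-0.12) and the low-valued Spink8 (0.16) did not separate the subregions.

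Genes of CA3 pyramidal neurons showed smaller differences. Of 14 listed genes, 12 were higher in CA3 and 9 had an unadjusted p under 0.05 (background 4.87%), with no adjusted call (background 0.0139%). In 3 of them, Grik4, Bok and Cpne4, every CA3 library lay above every CA1 library within each training group, as 1.23% of all genes did. With the replicate number as a block these 3 were called by limma, as were 20 of all 14413 genes in this direction. The median difference was -0.329, with -0.253 within trained and -0.386 within untrained libraries. The list did not set CA3 apart from DG: its summed level was 7724 to 10019 in DG, 6276 to 11004 in CA3 and 6266 to 8673 in CA1 libraries. Grik4 at 374 to 522, Bok at 307 to 516 and the scaffold Homer3 at 314 to 540 in DG lay within the ranges of the CA3 libraries or, for Homer3, reached above them.

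Grik4, the kainate receptor subunit GluK4 of mossy fibre synapses, had 431, 403 and 438 in CA1 trained and 268, 292 and 304 in CA1 untrained libraries. In CA3 it had 503, 597 and 621 in trained and 314 and 432 in untrained libraries. The subregions were apart within each training group and overlapped across them, because trained libraries were higher in both. The difference was -0.40 ± 0.0788 (limma adjusted p = 0.0515). Bok, a member of the Bcl2 family, had 334, 369 and 403 in CA1 trained, 148, 210 and 183 in CA1 untrained, 416, 453 and 546 in CA3 trained and 232 and 354 in CA3 untrained libraries. Its difference of -0.49 ± 0.128 was not called (limma adjusted p = 0.168). The calcium-binding copine Cpne4 differed by -0.37 ± 0.0767 (limma adjusted p = 0.067). It was called within untrained libraries (-0.56, limma adjusted p = 0.00537).

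Genes of the CA2 field, which borders CA3, gave no adjusted call by limma. Amigo2, an adhesion protein used to target CA2, had 90.9, 94.7 and 122 in CA1 trained and 79.5, 96.2 and 125 in CA1 untrained libraries, against 105, 248 and 215 in CA3 trained and 167 and 249 in CA3 untrained libraries. Only CA3 trained replicate 1, at 105, overlapped with the CA1 libraries. The difference of -0.90 ± 0.227 was not called (limma adjusted p = 0.183). The calcium-binding protein Necab2 also had 154 in CA3 trained replicate 1 against 391 and 398 in the other trained CA3 libraries, and differed by -0.72 ± 0.261. Of the 8 CA2 genes, Amigo2 and Necab2 had an unadjusted p under 0.05, and the others, among them Rgs14 (-0.11) and Pcp4 (0.03), did not.

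**Figure D2:**
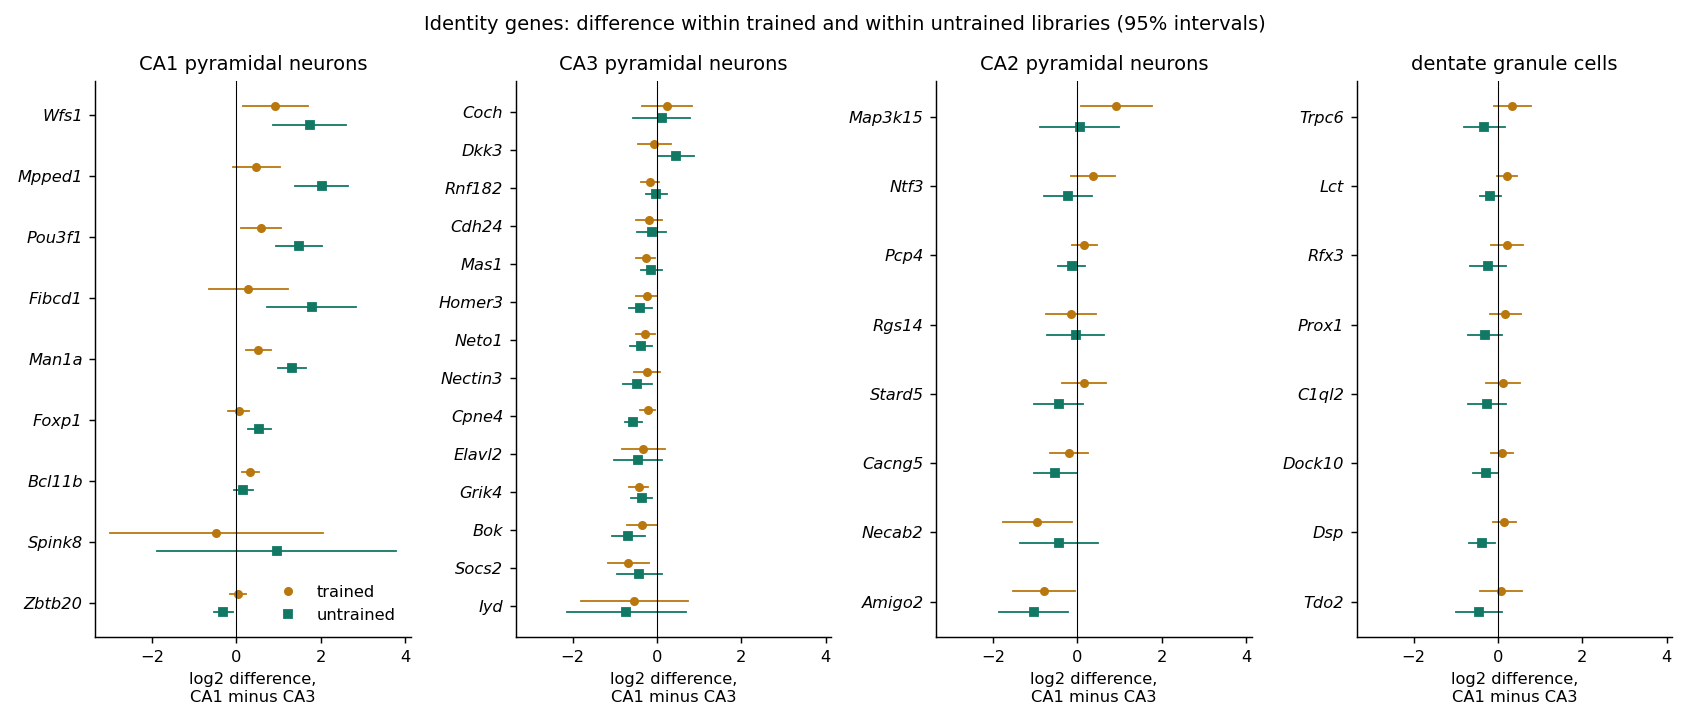
Log2 difference, CA1 minus CA3 (horizontal axis), of identity genes within trained (circles) and within untrained (squares) libraries, with 95% intervals from limma, in panels for 9 of the 10 CA1 genes and for the CA3, CA2 and granule cell genes. CA1 genes lie mostly to the right of 0 and farther in untrained libraries, CA3 genes mostly to the left by less than 1, and granule cell genes near 0, on the right in trained and on the left in untrained libraries.

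Across all 14413 genes tested, 8 differed between the subregions with training as an additive term, 6 higher in CA1 and 2 higher in CA3. At an unadjusted p under 0.05 there were 716 higher in CA1 and 702 higher in CA3. Among the 8, 4 protein-coding genes were higher in CA1: a palmitoyl transferase, a GTPase-activating protein, a junction protein and a secreted guidance cue. The 2 genes higher in CA3 were an adenylate kinase and a LIM-homeobox transcription factor, and the remaining 2 were small nucleolar RNAs.

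Zdhhc2, which palmitoylates the postsynaptic scaffold PSD-95, had 272, 270.5 and 334 in CA1 trained and 356, 349 and 470 in CA1 untrained libraries. In CA3 it had 191, 194 and 210 in trained and 218 and 209 in untrained libraries, and DG lay between 188 and 278. All 6 CA1 libraries were above all 5 CA3 libraries. The difference was 0.69 ± 0.0908 (limma adjusted p = 0.0054), with 0.55 within trained and 0.86 within untrained libraries. It was called with any library left out, at limma adjusted p from 0.00292 to 0.0454.

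Arhgap12, a GTPase-activating protein of excitatory synapses, had 853, 845 and 934 in CA1 trained and 1108, 1257 and 1373 in CA1 untrained libraries, against 766, 615 and 687 in CA3 trained and 806 and 772 in CA3 untrained libraries. The lowest CA1 library, at 845, was above the highest CA3 library, at 806. The difference was 0.49 ± 0.0734 (limma adjusted p = 0.0162). Jcad, a protein of endothelial cell junctions, was 618 to 686 in CA1 trained and 754 to 861 in CA1 untrained libraries, against 487 to 560 in CA3 trained and 532 and 564 in CA3 untrained libraries. It differed by 0.41 ± 0.0624 (limma adjusted p = 0.0162), again with no overlap. The endothelial marker list lay higher in CA1 in 6 of 6 genes, with a median of 0.237 and 1 unadjusted p under 0.05. The summed level of that list was 1098 to 1422 in CA1 and 915 to 1469 in CA3 libraries, and its part in the Jcad difference was not tested.

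Sema3a, the secreted semaphorin that repels axons through neuropilin 1, had 39.5, 36.9 and 54.9 in CA1 trained and 52.5, 77.2 and 80.9 in CA1 untrained libraries. In CA3 it had 13, 17.3 and 22.7 in trained and 42.8 and 23.2 in untrained libraries. The subregions were apart within each training group, and CA3 untrained replicate 1, at 42.8, lay among the trained CA1 libraries. The difference was 1.16 ± 0.197 (limma adjusted p = 0.0258), with 1.23 within trained and 1.08 within untrained libraries.

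Ak5, a brain adenylate kinase, had 2179, 2393 and 2276 in CA1 trained and 1759, 1953 and 1599 in CA1 untrained libraries, against 2655, 2740 and 2817 in CA3 trained and 2316 and 2461 in CA3 untrained libraries. The groups were apart within each training group, by -0.34 ± 0.0539 (limma adjusted p = 0.0162). Lhx9, a LIM-homeobox transcription factor, had 141, 127 and 101 in CA1 trained and 155, 129 and 165 in CA1 untrained libraries, and 229, 196 and 201 in CA3 trained and 194 and 197 in CA3 untrained libraries. No CA1 library reached a CA3 library, and the difference was -0.60 ± 0.105 (limma adjusted p = 0.036).

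**Figure D3:**
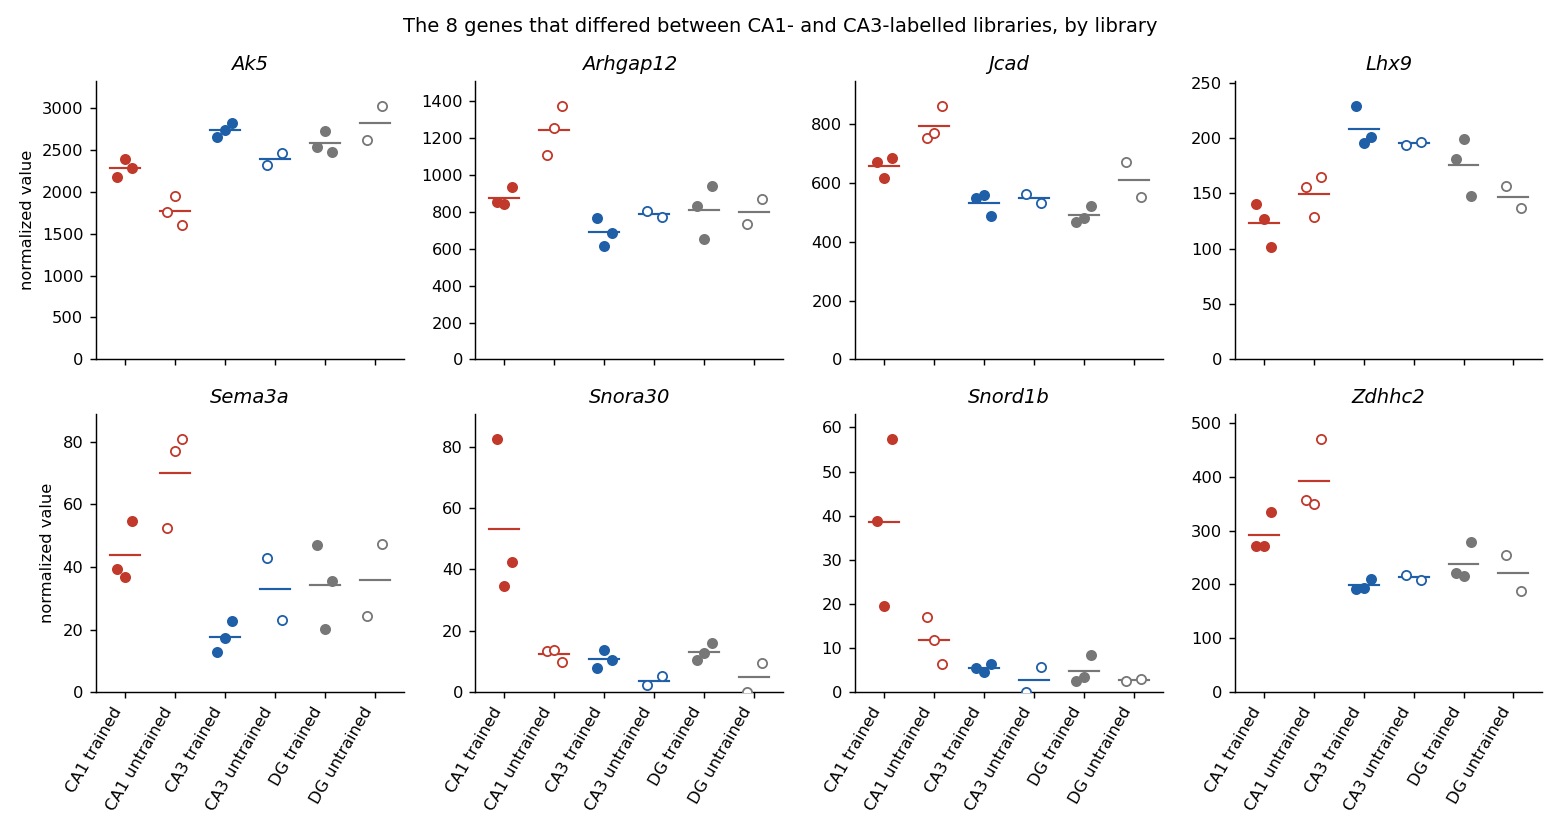
Normalized value (vertical axis, linear, from 0) of the 8 called genes in each library by labelled subregion and training; filled points are trained and open points untrained libraries, lines are group means, and DG is shown in grey for its level. Zdhhc2, Arhgap12, Jcad, Sema3a, Snora30 and Snord1b are higher in CA1, Ak5 and Lhx9 in CA3.

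The number of calls rested on single libraries and moved with a replicate block. With the replicate number as a block, which also drops CA1 untrained replicate 3, it was 77. Grik4, Bok, Cpne4, Amigo2 and Pou3f1 were among these. In the unblocked fit the number of calls was 1 without CA1 trained replicate 3, 2 without CA1 untrained replicate 2 or CA3 trained replicate 2, and 4 without CA1 untrained replicate 1. It was 14, 15 and 19 without CA3 untrained replicate 2, CA3 untrained replicate 1 and CA3 trained replicate 3, and 26, 57 and 70 without CA1 trained replicate 1, CA1 untrained replicate 3 and CA3 trained replicate 1.

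Small nucleolar RNAs (snoRNAs), which guide the chemical modification of ribosomal and spliceosomal RNA and are mostly cut from introns of host genes, were 2 of the 8. Their class was described after its values were seen. The sequences of both called members are given, because these transcripts are short and a reader can see what was counted. Snora30 is an H/ACA box snoRNA of 130 bases at chr7:127527874-127528003 on the plus strand (GRCm38, GENCODE M21), inside the gene Srcap, and Snord1b is a C/D box snoRNA of 75 bases at chr11:116674148-116674222 on the plus strand, inside 1810032O08Rik. Capitals mark the ACA that stands 3 bases from the 3′ end of Snora30 and the stretch that matches the hinge motif ANANNA, and the D box CTGA of Snord1b.
Snora30: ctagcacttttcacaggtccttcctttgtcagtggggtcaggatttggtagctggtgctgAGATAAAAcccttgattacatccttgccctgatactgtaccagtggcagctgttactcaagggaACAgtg
Snord1b: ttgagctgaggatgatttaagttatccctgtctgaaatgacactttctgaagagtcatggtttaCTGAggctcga
On the given strand, ACA at this place was found in 34 of 40 annotated snoRNAs named Snora (85.0%) and in 16.3% of the others, and CTGA in the last 25 bases was found in 96 of 97 named Snord (99.0%) and in 54.5% of the others.

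Snora30 had 82.5, 34.5 and 42.6 in CA1 trained and 13.4, 13.8 and 9.90 in CA1 untrained libraries, against 8.03, 13.9 and 10.5 in CA3 trained and 2.44 and 5.12 in CA3 untrained libraries. The subregions were apart within each training group and overlapped across them, and the difference was 1.73 ± 0.28 (limma adjusted p = 0.0172). Snord1b had 38.8, 19.5 and 57.4 in CA1 trained and 17.1, 11.8 and 6.44 in CA1 untrained libraries, and 5.56, 4.52 and 6.44 in CA3 trained and 0 and 5.72 in CA3 untrained libraries. Its difference of 2.06 ± 0.377 (limma adjusted p = 0.0497) kept an adjusted p under 0.05 with 4 of the 11 libraries left out in turn.

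Of the 120 snoRNAs in the files 75 passed the low value filter, which low snoRNAs can pass through their CA1 libraries alone, so the counts over those that passed are partly set by the filter. With a value of at least 10 required in every library, 29 were left, all higher in CA1, with 23 at an unadjusted p under 0.05, a median difference of 1.08 and 0 called by limma. All 75 that passed the filter were higher in CA1, and 62 of them had an unadjusted p under 0.05, against 4.97% of all genes, while 2 were called. Their median difference was 1.31, from 0.232 to 2.32, with 1.82 within trained and 0.767 within untrained libraries. The 43 C/D box members had a median of 1.68 and the 29 H/ACA box members one of 1.07. Without the low value filter 98 of 104 were higher in CA1. The filter was run anew with each of the 11 libraries left out, and 63 to 75 snoRNAs then passed it. All of those were higher in CA1, with medians from 1.13 to 1.53. From 39 (of 63) to 68 (of 75) had an unadjusted p under 0.05. The snoRNAs that no longer passed the filter were not tested in that fit. The number called was less steady, from 0 to 20 with a library left out and 12 with array weights. It was 20 without CA1 untrained replicate 3, 6 without CA3 trained replicate 1 and 5 without CA3 untrained replicate 2, and by limma 0 without CA1 untrained replicate 1 or 2, CA1 trained replicate 3 or CA3 trained replicate 2. The summed value of all snoRNAs was 19885, 11990 and 15342 in CA1 trained and 10791, 12978 and 4721 in CA1 untrained libraries. In CA3 it was 9681, 6898 and 5975 in trained and 3897 and 6744 in untrained libraries, so that CA1 was above CA3 within trained libraries, while CA1 untrained replicate 3 lay below CA3 untrained replicate 2.

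The host genes did not move with them. Of 57 same-strand host genes tested, 30 were higher in CA1 and 27 in CA3, with a median of 0.0104, and 0 were called by limma, with 1 higher in CA1 and 2 in CA3 at an unadjusted p under 0.05. Srcap, the host of Snora30, differed by 0.05 ± 0.0421. Other short transcripts lay on the same side as the snoRNAs. All 6 small Cajal body RNAs tested were higher in CA1, with a median of 1.04. So were 14 of 17 transcripts other than snoRNAs with at most 300 exonic bases, with a median of 0.52. These counts are not separate, since small Cajal body RNAs of that length were not left out of the 17. The ribozyme Rpph1, at -0.51, lay on the other side. Of 287 genes with over 300 and up to 1000 exonic bases, 107 were higher in CA1, with a median of -0.0726, and at an unadjusted p under 0.05 there were 4 higher in CA1 and 26 higher in CA3. Protein-coding genes had a median of -0.00609. The labels and the methods differ on whether RNA was selected by polyA or by removal of ribosomal RNA, and the part of RNA selection and of the recovery of short RNA in these differences was not tested.

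**Figure D4:**
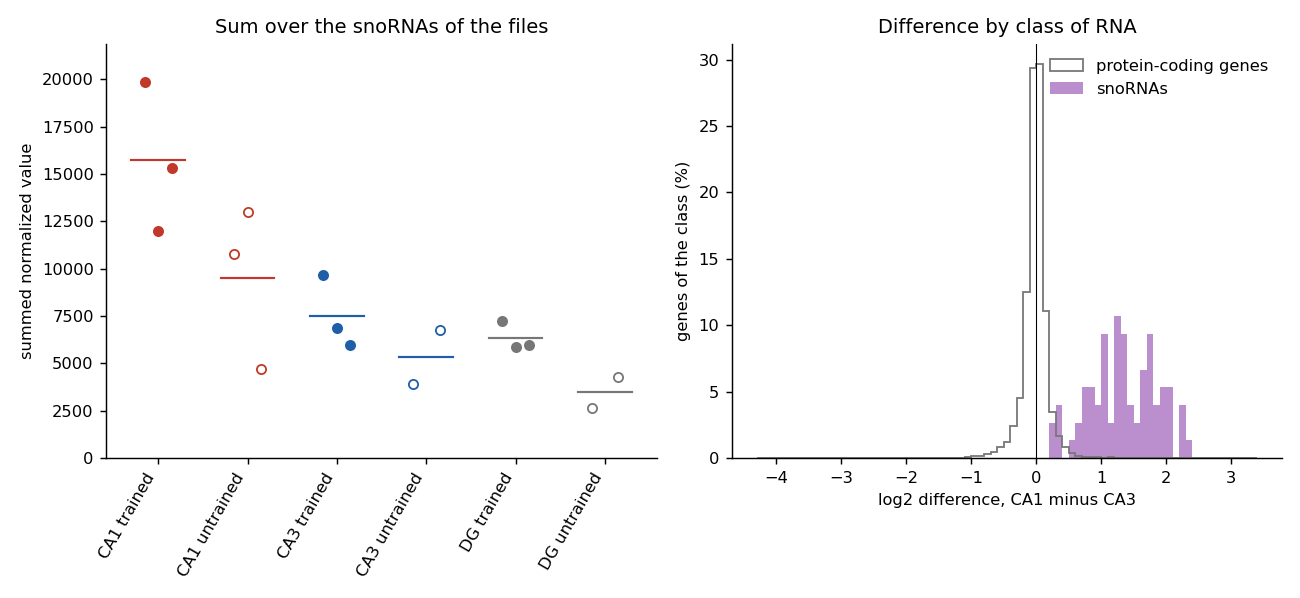
Left, summed normalized value of all snoRNAs (vertical axis, from 0) in each library by labelled subregion and training, filled points trained, open points untrained and lines group means; right, share of the snoRNAs (filled) and of protein-coding genes (outline) in bins of 0.1 of the log2 difference, CA1 minus CA3. The snoRNAs all lie to the right of 0, from 0.232 to 2.32, and the protein-coding genes are centred on 0.

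Genes of mean value at least 50 with no overlap between the 6 CA1 and 5 CA3 libraries were then ranked by adjusted p. Names that are only an identifier were left out. The lack of overlap of the genes named here was thus a condition of the choice and not a result. Among the genes so ranked, those higher in CA1 with the smallest adjusted p were, besides Zdhhc2, Arhgap12 and Jcad, Samd5 (0.72), Ankrd33b (0.30), Ankrd63 (1.08), Astn2 (0.48), Asap2 (0.48), Bcr (0.35), Itpr1 (0.39), Atp2b1 (0.23) and Glt8d2 (0.48), with limma adjusted p from 0.0515 to 0.0678. Itpr1, the IP3 receptor that releases calcium from the endoplasmic reticulum, had 4652 to 5333 in CA1 trained and 5694 to 6797 in CA1 untrained libraries, against 4024 to 4507 in CA3 trained and 3860 and 4642 in CA3 untrained libraries. Atp2b1, the plasma membrane calcium pump, differed by 0.23 ± 0.05, and Astn2, which regulates neuronal adhesion, by 0.48 ± 0.096.

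The corresponding genes higher in CA3 were, besides Lhx9, Apbb2 (-0.29), Flrt3 (-0.35), Mcu (-0.33), Il16 (-0.38), Rmnd1 (-0.40), Syt13 (-0.16), Rnase4 (-0.49), Mctp1 (-0.23), Capns1 (-0.18), Map1b (-0.14) and Htr4 (-0.25), with limma adjusted p from 0.0515 to 0.158. Mcu, the pore of the mitochondrial calcium uniporter, had 346, 318 and 341 in CA1 trained and 302, 274 and 294 in CA1 untrained libraries, against 375, 405 and 382 in CA3 trained and 405 and 402 in CA3 untrained libraries. Its lowest CA3 library was above its highest CA1 library (-0.33 ± 0.0656, limma adjusted p = 0.0515), and within untrained libraries it was called (-0.47, limma adjusted p = 0.0126), though not without CA3 untrained replicate 1, which leaves 1 library in that group. Flrt3, a ligand of the latrophilins at excitatory synapses, had 320 to 425 in the CA1 and 444 to 552 in the CA3 libraries. Map1b, a microtubule-associated protein of axons, differed by only -0.14 ± 0.0379.

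The families of genes below are read against the share of all genes at an unadjusted p under 0.05, which was 4.97% higher in CA1 and 4.87% higher in CA3. A share near these is not a result about the family, and shares of small families rest on few genes. Of 28 semaphorins, plexins and neuropilins, 4 (14.3%) were higher in CA1 at that level and 2 (7.14%) in CA3, and Sema3a alone was called. Of 18 genes of the Slit, Robo and netrin pathway, 0 were higher in CA1 and 6 (33.3%) higher in CA3, none called by limma, and the median was -0.071. Slit2, a secreted repellent, had 504, 445 and 519 in CA1 trained and 379, 310 and 304 in CA1 untrained libraries, against 521, 898 and 812 in CA3 trained and 413 and 561 in CA3 untrained libraries. Its receptor Robo1 and the netrin receptor Unc5c were likewise higher in CA3 within each training group, and the differences were -0.56 for Slit2, -0.18 for Robo1 and -0.25 for Unc5c, with limma adjusted p of 0.188, 0.174 and 0.0578. The netrin receptor Unc5d differed by -0.32 with 1 untrained CA3 library, at 359, below a CA1 library of its group, at 364. Of 20 Eph receptors and ephrins, 3 (15%) were higher in CA1 at an unadjusted p under 0.05 and 0 in CA3, led by Ephb3, which had 126 to 178.5 in CA1 and 72.6 to 125 in CA3 libraries (0.60 ± 0.135, limma adjusted p = 0.0797).

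Ion channels and receptors gave no adjusted call in the additive comparison. Of 42 voltage-gated potassium channel genes, 6 (14.3%) were higher in CA1 and 4 (9.52%) in CA3 at an unadjusted p under 0.05. Kcnh7, an ERG-type channel that opposes repetitive firing, had 230, 285 and 315 in CA1 trained and 415, 452 and 595 in CA1 untrained libraries, against 175, 182 and 147 in CA3 trained and 255 and 160.5 in CA3 untrained libraries. It was higher in CA1 within each training group, by 0.94 ± 0.162 (limma adjusted p = 0.0546), and was called within untrained libraries (1.24, limma adjusted p = 0.0169). The auxiliary subunit Kcnab1 (0.30) and the M-channel subunit Kcnq3 (0.20) were also ordered this way, and the A-type channel Kcnd3 (-0.23) was ordered with CA3 above CA1. Of 28 sodium, calcium and HCN channel genes, 5 (17.9%) were higher in CA1 and 1 (3.57%) in CA3 at that level, among them Pex5l, the HCN channel partner TRIP8b (0.59 ± 0.16), which was called within untrained libraries (0.99, limma adjusted p = 0.00563).

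Of 54 neuromodulator receptors, 5 (9.26%) were higher in CA1 and 7 (13%) in CA3 at an unadjusted p under 0.05. The serotonin receptor Htr1b had low values of 10.1, 15 and 15.6 in CA1 trained and 40.9, 36.4 and 48.3 in CA1 untrained libraries, against 2.12, 5.14 and 8.35 in CA3 trained and 14.6 and 6.43 in CA3 untrained libraries. It was higher in CA1 within each training group, by 1.5 ± 0.294 (limma adjusted p = 0.0515). Htr4, which raises cyclic AMP, was higher in CA3 with no overlap, at 311 to 356 in CA1 and 367 to 466 in CA3 libraries. Among glutamate receptors, all 6 NMDA receptor genes tested lay higher in CA1, 3 at an unadjusted p under 0.05, with Grin2a and Grin2b both at 0.14. Of 16 AMPA receptor genes, 3 were higher in CA1 and 1 in CA3 at that level, with the auxiliary subunit Cacng3 among the former (0.29 ± 0.0754). Of 9 kainate and delta receptor genes, 1 (11.1%) was higher in CA1 and 2 (22.2%) in CA3 at that level, the latter being Grik4 and the auxiliary subunit Neto1 (-0.32). Of 7 metabotropic glutamate receptors 0 reached it in either direction, none called by limma, and of 12 GABA-A receptor subunits 2 were higher in CA1 and 1 in CA3.

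Of 71 transcription factors of forebrain neurons, 18 (25.4%) were higher in CA1 and 2 (2.82%) in CA3 at an unadjusted p under 0.05, and the median was 0.0621. Pou3f2, a paralogue of Pou3f1, had 131 to 146 in CA1 trained and 156 to 194 in CA1 untrained libraries, against 106 to 124 in CA3 trained and 112 and 124 in CA3 untrained libraries, with no overlap (0.43 ± 0.0956, limma adjusted p = 0.0758). The LIM-only factor Lmo3 was higher in CA1 within each training group (0.18 ± 0.0516). Lhx9 was the only called member and ran the other way.

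Of 44 synaptic adhesion genes, 5 (11.4%) were higher in CA1 and 8 (18.2%) in CA3 at an unadjusted p under 0.05. The pentraxin receptor Nptxr had 7860, 8386 and 7577 in CA1 trained and 5950, 5653 and 5158 in CA1 untrained libraries, against 8744, 10011 and 10319 in CA3 trained and 6063 and 6984 in CA3 untrained libraries, apart within each training group (-0.26 ± 0.0532, limma adjusted p = 0.0546). Of 20 calcium binding proteins, 0 were higher in CA1 and 5 (25%) in CA3 at that level, none called by limma, and of 30 calcium and lipid dependent kinase genes, 5 (16.7%) were higher in CA1 and 1 (3.33%) in CA3. Of 15 classical cadherins 1 was higher on each side, Cdh6 in CA1 (0.61) and Cdh13 in CA3 (-0.18). Of 35 peptides and growth factors, 3 (8.57%) were higher in CA1 and 4 (11.4%) in CA3, with Nov, the matricellular protein also named Ccn3, at 178 to 362 in CA1 and 49.0 to 166 in CA3 libraries (1.46 ± 0.329, limma adjusted p = 0.164) and the growth factor Tgfb2 at -0.37 ± 0.0838 (limma adjusted p = 0.0864).

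Markers of other cells were set beside these values. Oligodendrocyte genes summed to 17009 to 28411 in CA1 and 13871 to 28901 in CA3 libraries, with a median difference of -0.0405 (-0.283 within trained and 0.251 within untrained libraries), and 0 of 11 at an unadjusted p under 0.05 by limma. Astrocyte genes summed to 14864 to 15817 in CA1 and 13601 to 15755 in CA3 libraries, 3 of 9 were higher in CA1 at that level, and the median was 0.0676. Of 13 interneuron genes 1 was higher on each side, and of 11 microglial genes 0, none called by limma. The lists of oligodendrocyte precursors, mural cells, ependyma, mossy cells, subiculum and thalamus had 0 members at an unadjusted p under 0.05 by limma, out of 5, 5, 3, 4, 2 and 5 tested, and the leptomeningeal list had 1 of 8. The choroid plexus gene Ttr, a transport protein for thyroid hormone, was 2008 in CA1 trained replicate 1. It was 560 to 863 in the untrained and 62.2 to 72.4 in the other trained libraries of CA1 and CA3. Its summed list ran from 990 to 4390 in CA1 and from 940 to 2487 in CA3 libraries, 7 of its 9 genes lay higher in CA1, with a median of 0.332, and 1 had an unadjusted p under 0.05. This was Kl, which encodes klotho (0.43), with every CA1 library above every CA3 library, and it was not called by limma. The part of the choroid plexus in the results was not tested.

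The difference between CA1 and CA3 was then taken within each training group in a fit of all 4 groups. Within trained libraries limma called 0 genes, with 1114 at an unadjusted p under 0.05. The trained libraries alone gave 9 calls, and the fit without CA3 trained replicate 1 gave 164. Without CA1 untrained replicate 3, CA1 trained replicate 2 or CA3 trained replicate 2 there were 10, 13 and 1. Within untrained libraries 103 genes were called, 84 higher in CA1 (0.583% of genes tested) and 19 higher in CA3 (0.132%). Without the unmatched CA3 untrained replicate 1 there were 60 calls, and 41 of the 103 remained, and without CA3 untrained replicate 2 there were 39. Each of these fits has 1 CA3 untrained library, whose spread is taken from the other groups. Within untrained libraries the granule cell markers lay higher in CA3 in 8 of 8 genes, with a median of -0.293 and 0 called by limma, and oligodendrocyte genes lay higher in CA1 in 11 of 11 and microglial genes in 10 of 11. Their part in the result was not tested. There were 193 calls without CA3 trained replicate 1.

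The genes named next were chosen after their values were seen. Among the 84 were the protein kinase C isoform Prkcb (0.64), the receptor tyrosine kinase Tyro3 (1.14), the kinase Hunk (1.07), the postsynaptic scaffold Homer2 (0.72), the ryanodine receptor Ryr3 (0.54), the somatostatin receptor Sstr4 (1.22), the serotonin receptor Htr1a (0.85) and the signalling protein Wnt2 (2.18). Among the 19 were the calcium sensor Ncald (-0.47), Il16 (-0.62), Islr2 (-0.53), Cpne4 (-0.56), Ak5 (-0.44) and Lgi1 (-0.32). Prkcb had 8524, 8062 and 10352 in CA1 untrained and 5805 and 5687 in CA3 untrained libraries, while the trained libraries lay at 8248 to 8476 in CA1 and 7371 to 8627 in CA3 and overlapped. Prkcb, Tyro3, Hunk, Homer2, Ryr3, Ncald, Il16, Islr2, Cpne4 and Ak5 were also called without CA3 untrained replicate 1, with 1 library left in its group, and Sstr4, Htr1a, Wnt2 and Lgi1 were not.

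Of 32 immediate early genes, which neurons transcribe within minutes of activity, 4 were called higher in CA1 and 1 higher in CA3 within untrained libraries, against 0.583% and 0.132% of all genes. By limma 0 were called in the additive comparison, where 5 (15.6%) were higher in CA1 and 2 (6.25%) in CA3 at an unadjusted p under 0.05, against 4.97% and 4.87% of all genes. Egr1, a zinc-finger transcription factor, had 1134, 1344 and 1716 in CA1 untrained against 687 and 684 in CA3 untrained libraries, and 678, 759 and 687 in CA1 trained against 582, 632 and 687 in CA3 trained libraries. The untrained difference was 1.01 (limma adjusted p = 0.00231) and the trained one 0.16. By the interaction test of limma no listed gene was called, with the smallest adjusted p of 0.171 in Homer1 and one of 0.258 in Egr1. At an unadjusted p under 0.05 there were 10 negative and 2 positive interactions among the 32, against 502 and 436 of all 14413 genes. Within untrained libraries Dusp6 (0.66), Homer1 (0.41) and Junb (0.61) were the other calls higher in CA1. Nrn1 (-0.36), which encodes the surface protein neuritin, was the call higher in CA3. The summed level of the list was 13708 to 18548 in CA1 and 13835 to 14430 in CA3 libraries, and of these 5 calls Egr1 alone was also called without CA3 untrained replicate 1, with 1 CA3 untrained library left.

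Of the 103 genes, 86 differed in the same direction within trained libraries, which share no library with the untrained ones. There 34 had an unadjusted p under 0.05, against 1114 of all 14413 genes. Both tests used the same estimate of the spread of each gene, so these p-values are not independent of the choice. The median size of the difference of the 103 genes was 0.624 within untrained and 0.161 within trained libraries, and the genes were chosen on the first of these. How much that choice adds to the gap was not measured. Over the 10771 genes with a mean value of at least 50, 53.0% had the same sign in both groups, and the Pearson and Spearman correlations across genes, which are not independent replicates, were 0.175 and 0.103.

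Whether the difference itself changed with training was tested as an interaction, which was called for 4 genes, with 938 at an unadjusted p under 0.05. With the replicate number as a block none of the 4 was called. The level of Xist went with training in 10 of the 11 libraries, and the interaction was positive for 8 of 8 granule cell markers, 3 of them at an unadjusted p under 0.05 and 0 called by limma. It was negative for 11 of 11 oligodendrocyte genes, 11 of 11 microglial genes, 5 of 5 genes of oligodendrocyte precursors and 11 of 13 interneuron genes, with 0, 2, 1 and 1 of them at an unadjusted p under 0.05 and 0 called by limma. All 11 oligodendrocyte genes were higher in CA1 within untrained and all 11 higher in CA3 within trained libraries. The part of these cell types in the result was not tested. Within untrained libraries these genes were higher in CA1 by 0.58 (Snhg11), 0.49 (Meg3), 0.75 (Galnt9) and 1.07 (Zfp462), and within trained libraries their differences were -0.02, 0.02, -0.13 and 0.08. Snhg11, a neuronal long noncoding RNA that hosts snoRNAs, had 6555, 7084 and 7308 in CA1 untrained against 4855 and 4480 in CA3 untrained libraries, and 6431, 7053 and 7083 in CA1 trained against 6868, 7166 and 6827 in CA3 trained libraries. The CA3 untrained libraries were the low group, at the level of the DG libraries (4628 to 5652). Meg3, an imprinted long noncoding RNA, followed the same order, with 16068 to 17958 in CA1 untrained and 12136 and 12199 in CA3 untrained libraries, and 17010 to 19145 in the trained libraries of both subregions.

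The glycosyltransferase Galnt9 had 491, 425 and 550 in CA1 untrained against 290 and 288 in CA3 untrained libraries, with the trained libraries between 357 and 459. The zinc-finger protein Zfp462 had 939, 829 and 1013 in CA1 untrained against 420.5 and 459 in CA3 untrained libraries, and 587, 595 and 605 in CA1 trained against 457, 598 and 648 in CA3 trained libraries. The trained minus untrained change of the difference was -0.60 for Snhg11 and -0.47 for Meg3, and -0.88 for Galnt9 and -0.98 for Zfp462. The count of calls was 0 without CA1 untrained replicate 3 or any of the 3 CA1 trained libraries, 1 without CA3 untrained replicate 2 or CA3 trained replicate 2, 2 without CA3 trained replicate 3, 8 without CA1 untrained replicate 2 and 135 without CA3 trained replicate 1.

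**Figure D5:**
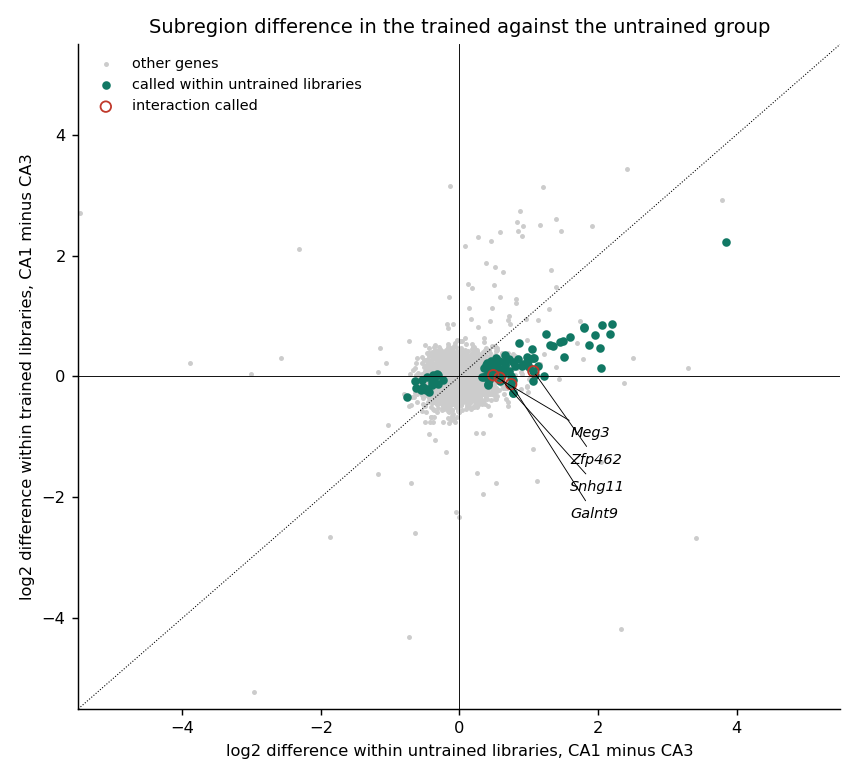
Log2 difference, CA1 minus CA3, within untrained (horizontal axis) and within trained libraries (vertical axis), for genes with a mean value of at least 50 (grey) and the 103 genes called within untrained libraries (green); rings mark the 4 genes with a called interaction and the dotted line is equality. Of the 103 green points, which were chosen on the horizontal axis, 95 have a trained difference nearer to 0 than to the untrained one and 8 do not, and the ringed genes lie near 0 on the vertical axis.

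In a principal component analysis of the genes tested, the first component held 33.3% of the variance and set the 5 libraries with many genes at 0 apart from the other 6, and the second held 15% and ordered the subregions within each training group. With genes of a mean value of at least 50, the first component (27.9%) separated trained from untrained libraries and the second (15.8%) separated all CA1 from all CA3 libraries. With the genes scaled to unit variance, none of the first 3 components (22.6%, 15.9% and 13%) set all CA1 apart from all CA3 libraries.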

How the data were processed

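RNA of 16 libraries was sequenced by the authors, who used bcl2fastq 2.20, FastQC, Trim Galore, STAR, Salmon and DESeq2, per the labels and the study's methods, with GRCm38 named in the processing notes. The deposited values, treated as a signal, are not whole reads and sum to between 7607326 and 7984931 in the 11 CA1 and CA3 libraries, so read depth is unknown. How the authors scaled them, and whether counting used strand, is not given in the sources used here. The labels name polyA RNA, and the methods describe both depletion of ribosomal RNA and a step that enriches mRNA, so the RNA selection is not settled here.

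Genes with a value of at least 10 in at least 2 of the 11 libraries were kept (14413). Values were tested as log2(value + 2) with limma 3.58.1 (R 4.3.3), with its trended and robust variance estimate. Calls were made after Benjamini-Hochberg correction at an adjusted p under 0.05. Training was an additive term in the first fit, and 4 groups gave the differences within each training group and their interaction. The script was tested on simulated data. Figures were drawn with matplotlib 3.10.9.

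The titles number the libraries within a training group, which is not stated to mark animals, so no pairing entered the main fits and the fit with a replicate block is an alternative.

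The members and gene lists were chosen with earlier results of these data known. Named genes were the 12 on each side with the smallest adjusted p among genes of mean value at least 50 whose libraries did not overlap, the members of the identity lists, the 4 members of each other list with the smallest adjusted p, any member needed to describe a family, the 5 called genes with the largest difference in each direction, the interaction genes and Xist and Ddx3y. The snoRNAs, and the genes so described in the text, were chosen after their values were seen. An untrained CA3 and an untrained DG library of the study were not analysed here. Some list members that enter the counts are not reported here by name.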

Additional observations from a re-analysis of the deposited data

Results flagged for a closer look

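The difference between CA1 and CA3 differed between trained and untrained animals in 4 genes by the interaction test of limma at an adjusted p under 0.05. The change, trained minus untrained on the log2 scale, was -0.602 for Snhg11, -0.47 for Meg3, -0.876 for Galnt9 and -0.984 for Zfp462. With the replicate number as a block the changes were -0.568, -0.463, -0.787 and -0.918, and none of the 4 was called (limma adjusted p = 0.0855 for each). Each of them lost the call without CA1 untrained replicate 3, without any of the 3 CA1 trained libraries, without CA3 untrained replicate 2 and without CA3 trained replicate 2. Without the unmatched CA3 untrained replicate 1, which leaves 1 CA3 untrained library with the spread of the other groups, Snhg11 was called and Meg3, Galnt9 and Zfp462 were not. No group had the 4 libraries needed to test a single library against the rest of its group.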

How the results depend on the processing

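The 8 calls of the comparison over both training groups became 4 with genes of mean value at least 50, 24 with median-of-ratios or upper-quartile rescaling, 182 with array weights (82 higher in CA1), 31 with all 16 libraries in the fit, 18 with a term for the 5 libraries richest in genes at 0, 0 without the training term (1034 at an unadjusted p under 0.05, limma) and 1 to 70 with a library left out. Without robust estimation 10 of 11 calls were higher in CA1, against 6 of 8. Within trained libraries the 0 calls became 4 with a pseudocount of 8, 369 with array weights, 9 with the trained libraries alone and 0 to 164 with a library left out. Within untrained libraries the 103 calls ran from 39 to 193 with a library left out. The 4 interaction calls became 1 with a pseudocount of 0.5 or without the low value filter, 0 without robust estimation, 34 with array weights, 2 with the term for many genes at 0, and 0 to 135 with a library left out. The 2 called members of the gene lists became 0 with genes of mean value at least 50 or without the training term, 5 with either rescaling, without robust estimation or with the term for many genes at 0, 30 with array weights, 7 with all 16 libraries, and 0 to 19 with a library left out. With equal numbers within a training group as a replicate block, the counts in this order were 77 (57 higher in CA1), 38, 96, 1 and, for the gene lists, 10. The 1 interaction call was none of the 4 of the main fit. The numbers are not stated to mark animals, the correlations of the deviations of same-numbered libraries from their group means were -0.111, -0.118, -0.08, -0.012 and 0.086, and the untrained 1 libraries did not match, so the pairing is not established. The block also drops CA1 untrained replicate 3, whose number has no CA3 library, and without it the unblocked fit alone gave 57 calls. Of the 77, 37 were snoRNAs, against 2 of the 8 and 20 of the 57, and Bok, Amigo2, Grik4 and Pou3f1 were among the rest. Chosen after seeing the data, the block gave 69 without the untrained 1 libraries too, against 36 in the same 8 libraries unblocked. With the number as a random effect there were 7, 0, 100 and 4 calls. The causes were not tested. Over 191 results of single genes, with 21 to 25 alternatives each, 4477 values kept their side of the threshold. Another 161 passed it newly and 93 no longer passed it. A change of direction with a call in either fit was found in 0, and changes of direction without a call were not counted. The counts of snoRNAs under each alternative were added after seeing the data, and with the term for many genes at 0 45 of 75 had an unadjusted p under 0.05, and without the training term 33. Depth is unknown, so its limit on low genes could not be set.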
